A study of Xenopus laevis with 14 samples.

Results

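AP-3 is an adaptor protein complex that gathers membrane cargo into vesicles at endosomes. The genes of its subunits were taken as every row of the count table whose symbol, without the ending .L or .S, was *ap3b1*, *ap3b2*, *ap3d1*, *ap3m1*, *ap3m2*, *ap3s1* or *ap3s2*. This gave 10 of the 26807 rows and covered 6 of the 7 symbols, since no row carried the name *ap3m1*. *X. laevis* descends from a hybrid of related frogs and kept many genes as homeologs, an L copy on the longer and an S copy on the shorter chromosome of a pair. Both copies were present for 4 subunits (*ap3d1*, *ap3b2*, *ap3m2* and *ap3s1*), the L copy alone for *ap3b1* and the S copy alone for *ap3s2*.

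RNA was sequenced from whole brains of NF stage 47 *X. laevis* tadpoles, 6 brains pooled per library, in 4 *ap3b2* CRISPant libraries (genotype ap3b2-/-, mosaic F0), 5 *eef1a2* CRISPant libraries (genotype eef1a2-/-, mosaic F0) and 5 control libraries (genotype WT). Every embryo had been injected with Cas9 protein and a guide RNA, the controls with a scrambled guide that has no target, and all embryos came from 2 females. The guide for *ap3b2* was designed against the S copy, *ap3b2.S*. CRISPants are the injected animals themselves, so each brain was a mosaic of edited and unedited cells, and a pool of 6 hides how single animals differed. The controls were siblings of the CRISPants by the study's methods, and the labels do not tie a pool to a female, so p-values measure the spread between pools, part of which may be technical.

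Read pairs counted on genes numbered 36563581 to 46745977 per library, and every AP-3 row was well covered, with between 313 and 7669 counts per library. Levels are given in CPM, the counts of a gene scaled to a fixed library total, after TMM scaling, which corrects for differences in RNA composition between libraries. The 10 neuronal marker genes on a list (20 rows, such as *elavl3*, *snap25* and *syt1*) were all present above 1 CPM, with summed levels of 8533 to 8923 CPM in *ap3b2* CRISPants, 8096 to 9013 CPM in *eef1a2* CRISPants and 7521 to 8612 CPM in controls. Within a whole brain, fewer cells of a type and less RNA per cell cannot be told apart. Long genes were lower and short genes higher in both CRISPant groups. Among the 1785 genes that span more than 98505 bases, the median log2 deviation from the control mean was between -0.28 and -0.16 in *ap3b2* CRISPant libraries, between -0.31 and -0.07 in *eef1a2* CRISPant libraries and between -0.16 and 0.06 in controls. For short genes, at the other end of the ranking by span, this median was between 0.15 and 0.30 in *ap3b2* CRISPant libraries. It was between 0.08 and 0.33 in *eef1a2* CRISPant libraries and between -0.05 and 0.14 in controls.

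Each AP-3 complex holds a δ and a β large subunit, a μ medium subunit and a σ small subunit. In mammals *Ap3d1* (δ), *Ap3b1* (β3A), *Ap3m1* (μ3A), *Ap3s1* and *Ap3s2* (σ) build a form found in most tissues, which carries cargo from endosomes to lysosomes and pigment granules. Neurons also make a second form with *Ap3b2* (β3B) and *Ap3m2* (μ3B) that acts in the making of synaptic vesicles from endosomes. Loss of *AP3B2* causes an early epileptic encephalopathy in humans, and loss of *AP3B1* or *AP3D1* causes forms of Hermansky-Pudlak syndrome, a disorder of pigment granules and platelets.

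In *ap3b2* CRISPant brains 3 of the 10 AP-3 rows were lower than in controls (*ap3b1.L*, *ap3b2.L* and *ap3m2.S*) and 2 were higher (*ap3s1.L* and *ap3s1.S*) at a false discovery rate (FDR) below 0.05 in edgeR's quasi-likelihood test. Of all 20800 genes tested 22.8% were lower and 20.0% higher by the same rule, so the share of AP-3 rows was close to the background. In *eef1a2* CRISPant brains 2 rows were lower (*ap3b2.L* and *ap3m2.S*) and 1 was higher (*ap3s1.L*), against a background of 21.4% lower and 18.8% higher among 20682 genes. None of the 10 rows changed by more than 2-fold in either comparison, whereas by that rule 5.11% of all genes were lower and 0.0769% higher in *ap3b2* CRISPants, and 5.24% were lower and 0.0870% higher in *eef1a2* CRISPants. The median log2 fold change of the 10 rows was 0.01 in *ap3b2* and 0.02 in *eef1a2* CRISPants, beside medians of 0.03 for all genes in both comparisons. The CRISPant groups were compared with the same 5 controls, so their results are not independent. With library size alone in place of TMM scaling the same 3 and 2 rows were lower and 0 were higher. The share of all genes under that scaling was not computed.

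**Figure D1:**
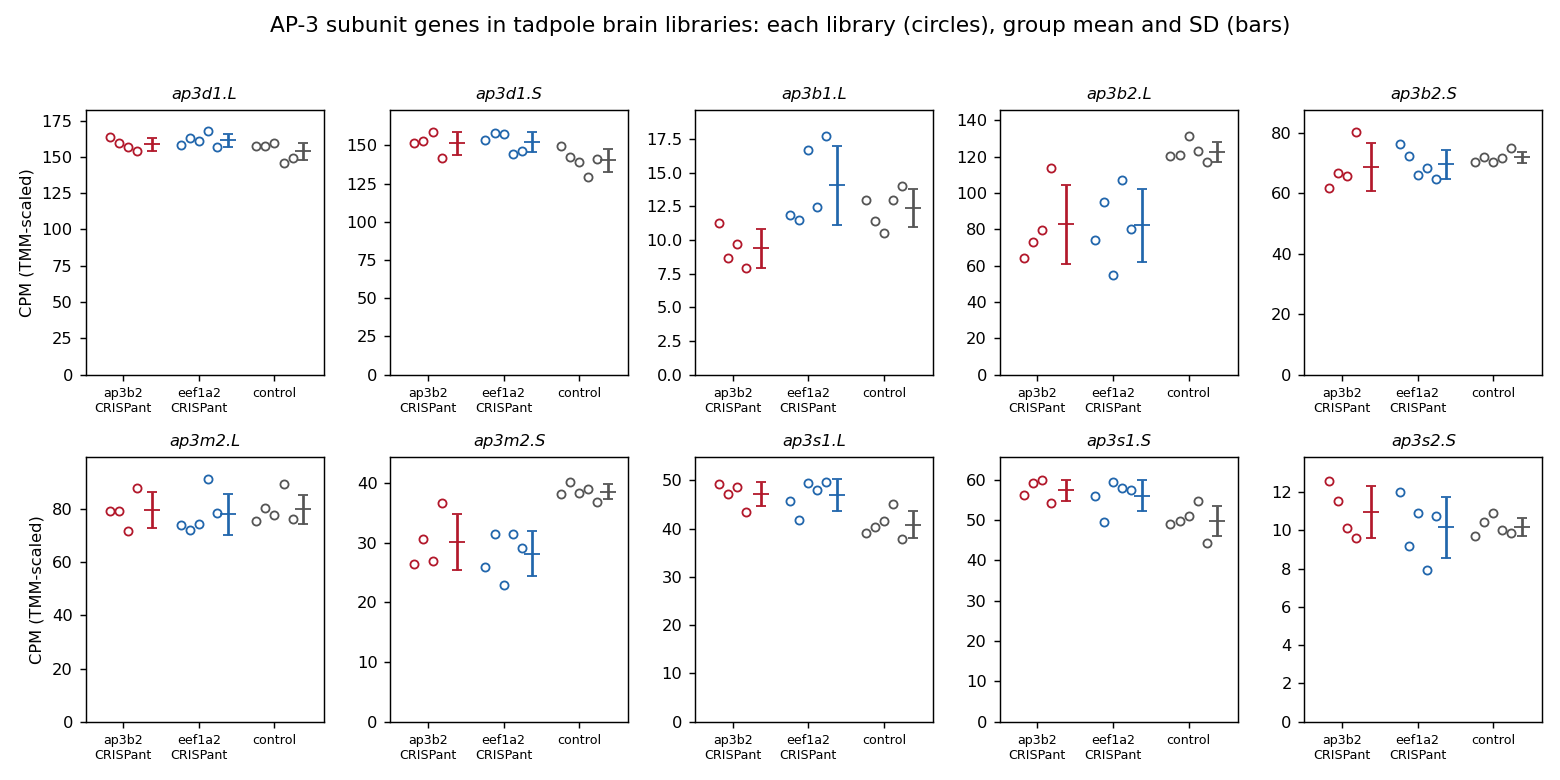
CPM after TMM scaling (y axis, from 0) of the 10 AP-3 rows in *ap3b2* CRISPant (n = 4), *eef1a2* CRISPant (n = 5) and control libraries (n = 5). Circles are libraries and bars give the mean ± SD; *ap3b2.L* and *ap3m2.S* lie below all 5 controls in every CRISPant library.

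The δ subunit is shared by every form of AP-3. Its copies *ap3d1.L* (chromosome 1L, 112046958 to 112121246, *X. laevis* v10.1) and *ap3d1.S* (chromosome 1S, 93597791 to 93678203) had the most counts of the AP-3 rows. *ap3d1.L* averaged 159 ± 4.18 CPM in *ap3b2* CRISPants (SD, n = 4), 161 ± 4.41 CPM in *eef1a2* CRISPants and 154 ± 5.97 CPM in controls (SD, n = 5 each). *ap3d1.S* averaged 151 ± 7.31, 152 ± 6.42 and 140.3 ± 7.503 CPM in the same groups. The groups overlapped, and neither copy passed the test: the log2 fold change of *ap3d1.L* was 0.04 (SE 0.05) in *ap3b2* and 0.06 (SE 0.05) in *eef1a2* CRISPants, and that of *ap3d1.S* was 0.10 (SE 0.06 and 0.05) in both. With each library's trend along gene span removed, both copies passed as higher: *ap3d1.S*, for one, at log2 fold changes of 0.31 (FDR = 0.00412, edgeR) in *ap3b2* and 0.27 (FDR = 0.00849, edgeR) in *eef1a2* CRISPants.

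The β subunit row that was edited, *ap3b2.S* (chromosome 1S, 173781321 to 173927757), did not pass in either comparison. Its levels were 61.9, 66.6, 65.9 and 80.2 CPM in *ap3b2* CRISPant replicates 1 to 4, 76.4, 72.2, 66.0, 68.3 and 64.8 CPM in *eef1a2* CRISPant replicates 1 to 5 and 70.2, 72.1, 70.5, 71.6 and 74.8 CPM in control replicates 1 to 5. Thus 3 of 4 *ap3b2* CRISPant libraries lay below all controls and the other, replicate 4, lay above them. The *eef1a2* CRISPants were alike in this: replicates 3, 4 and 5 lay below all controls, replicate 1 above them and replicate 2 among them. The 95% interval of the log2 fold change was -0.23 to 0.09 in *ap3b2* CRISPants and -0.18 to 0.06 in *eef1a2* CRISPants. The call in *ap3b2* CRISPants rested on replicate 4: without it *ap3b2.S* was lower, at -0.15 (FDR = 0.0326, edgeR), and so it was over replicates 1 to 3 alone, at -0.16 (FDR = 0.0238, edgeR). With the trend with gene span removed the direction turned to 0.19 (FDR = 0.0378, edgeR) in *ap3b2* and 0.16 (FDR = 0.0479, edgeR) in *eef1a2* CRISPants.

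Its homeolog *ap3b2.L*, for which no position was given in the gene table used, was lower in both CRISPant groups alike. Its levels were 64.4, 72.8, 79.8 and 114 CPM in *ap3b2* CRISPants, 73.9, 95.3, 54.8, 107 and 80.3 CPM in *eef1a2* CRISPants and 120.4, 121, 131, 123 and 117 CPM in controls. All 9 CRISPant libraries therefore lay below the lowest control, and replicate 4 came nearest to the controls in both CRISPant groups. The variation between libraries was also larger in the CRISPants, with a coefficient of variation of 26.3% in *ap3b2* CRISPants and 24.4% in *eef1a2* CRISPants against 4.36% in controls. In *eef1a2* CRISPants, in which *ap3b2* was not targeted, the log2 fold change was -0.58 (SE 0.15, FDR = 0.0119, edgeR), next to -0.57 (SE 0.13, FDR = 0.00691, edgeR) in *ap3b2* CRISPants. Set directly against each other, *ap3b2* and *eef1a2* CRISPants differed in *ap3b2.L* by 0.00 on the log2 scale, with a 95% interval of -0.44 to 0.45 that leaves room for differences of either sign. With the trend with gene span removed the log2 fold changes were smaller, at -0.32 (FDR = 0.0424, edgeR) in *ap3b2* and -0.37 (FDR = 0.0361, edgeR) in *eef1a2* CRISPants. The span of *ap3b2.S*, 146437 bases, stood in for that of *ap3b2.L* there.

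Counting both copies together makes the level independent of how counted reads were divided between near-identical homeologs. Reads counted for neither copy are still missing from the sum. The *ap3b2* sum averaged 151 ± 29.6 CPM in *ap3b2* CRISPants (SD, n = 4), 152 ± 21.3 CPM in *eef1a2* CRISPants and 194 ± 4.38 CPM in controls (SD, n = 5 each). The sum was lower by 0.38 on the log2 scale in *ap3b2* CRISPants (log2 fold change -0.38, SE 0.10, FDR = 0.0145, edgeR) and by a similar amount in *eef1a2* CRISPants (-0.37, SE 0.09, FDR = 0.00952, edgeR). Of all sums tested 21.4% were lower in *ap3b2* and 20.5% in *eef1a2* CRISPants. Without *ap3b2* CRISPant replicate 2 the first of these missed the threshold (-0.34, FDR = 0.0519, edgeR).

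The other β subunit, *ap3b1.L* (chromosome 1L, 201953357 to 202096895), was the AP-3 row in which the CRISPant groups stood furthest apart. It had 11.2, 8.62, 9.70 and 7.90 CPM in *ap3b2* CRISPants, 11.9, 11.5, 16.7, 12.48 and 17.7 CPM in *eef1a2* CRISPants and 13.0, 11.4, 10.5, 13.0 and 14.03 CPM in controls. The *ap3b2* CRISPants were lowest, with replicate 1 alone inside the control range, and *eef1a2* CRISPant replicates 3 and 5 lay above every control. Its log2 fold change was -0.41 (SE 0.13, FDR = 0.0222, edgeR) in *ap3b2* CRISPants, and 0.17 (SE 0.14, FDR = 0.348, edgeR) in *eef1a2* CRISPants, which did not pass. The call in *ap3b2* CRISPants was lost over replicates 1 to 3 alone (-0.27, FDR = 0.0910, edgeR), with the trend with gene span removed (-0.14, FDR = 0.466, edgeR) and without *ap3b2* CRISPant replicate 2 (-0.37, FDR = 0.0712, edgeR), control replicate 1 (-0.39, FDR = 0.0528, edgeR) or control replicate 5 (-0.36, FDR = 0.0566, edgeR).

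Between *ap3b2* and *eef1a2* CRISPants *ap3b1.L* differed by -0.59 on the log2 scale (95% interval -0.96 to -0.21), and all 4 *ap3b2* CRISPant libraries lay below all 5 *eef1a2* CRISPant libraries, as did 0.272% of all genes. This difference did not survive adjustment over 20584 genes (unadjusted p = 0.00542, FDR = 1.00, edgeR), and no gene of the table did. Of the 10 AP-3 rows 0 passed in this comparison by edgeR or by DESeq2, and 1, *ap3b1.L*, had an unadjusted p below 0.05 in edgeR, beside 0.870% of all genes. Only 0.0680% of all genes had a lower log2 fold change than *ap3b1.L*. The other 9 rows had log2 fold changes between -0.03 and 0.11.

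**Figure D2:**
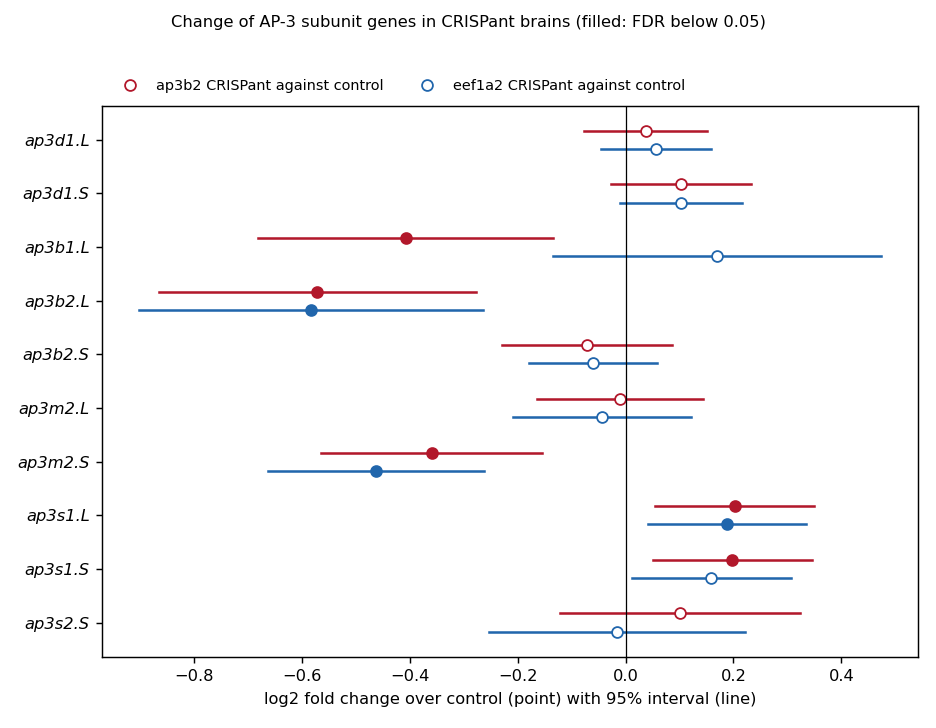
Log2 fold change (x axis) of each AP-3 row (y axis) in *ap3b2* CRISPants (upper, red) and *eef1a2* CRISPants (lower, blue) over the same controls. Points are edgeR estimates, lines their 95% intervals and filled points an FDR below 0.05; *ap3b1.L* is at -0.41 in *ap3b2* and 0.17 in *eef1a2* CRISPants, while *ap3b2.L* is at -0.57 and -0.58.

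Most β counts in these brains came from the neuronal gene. The *ap3b2* copies together took 93.96 ± 1.75% of all β counts in *ap3b2* CRISPants (SD, n = 4), 91.3 ± 2.64% in *eef1a2* CRISPants and 94.00 ± 0.73% in controls (SD, n = 5 each). These are shares of counts, not corrected for transcript length, because no lengths were at hand. There were 16.7 ± 5.63 *ap3b2* counts for each *ap3b1.L* count in *ap3b2* CRISPants, 11.3 ± 3.41 in *eef1a2* CRISPants and 15.9 ± 2.17 in controls. The share was lower in *eef1a2* CRISPants than in controls by an exact permutation test (2-sided p = 0.0397), but not after adjustment over the 3 comparisons (p = 0.119, exact permutation). Between *ap3b2* CRISPants and controls the exact permutation p was 0.968, and between the CRISPant groups it was 0.159 (0.968 and 0.238 adjusted). The smallest p that the arrangements allow is 0.00794 for *eef1a2* CRISPants against controls and 0.0159 for the others.

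The μ subunit binds sorting signals in the tails of cargo proteins. The only μ rows found by name were those of *ap3m2*, the neuronal form in mammals. Whether *ap3m1* was counted under another name was not checked. The S copy (chromosome 3S, 22384862 to 22395005) was lower in both CRISPant groups. *ap3m2.S* had 26.4, 30.6, 27.0 and 36.6 CPM in *ap3b2* CRISPants, 25.8, 31.5, 22.9, 31.4 and 29.1 CPM in *eef1a2* CRISPants and 38.2, 40.2, 38.3, 39.0 and 36.8 CPM in controls. All 9 CRISPant libraries were below the lowest control, although *ap3b2* CRISPant replicate 4 came within 0.2 CPM of it. The log2 fold change was -0.36 (SE 0.09, FDR = 0.0110, edgeR) in *ap3b2* and -0.46 (SE 0.09, FDR = 0.00780, edgeR) in *eef1a2* CRISPants. *ap3b2.L* and *ap3m2.S* were the 2 AP-3 rows that did not overlap with the controls, in both groups alike, where 26.3% of all genes did not overlap in *ap3b2* CRISPants and 19.1% in *eef1a2* CRISPants, in either direction. *ap3m2.S* spans 10144 bases. With the trend with gene span removed its log2 fold changes were -0.50 in *ap3b2* and -0.58 in *eef1a2* CRISPants (FDR = 0.00529 and 0.00849, edgeR). The part of gene span in this change was not tested.

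The L copy, *ap3m2.L* (chromosome 3L, 139842093 to 139854532), overlapped between all groups. It averaged 79.6 ± 6.63 CPM in *ap3b2* CRISPants (SD, n = 4), 78.0 ± 7.76 CPM in *eef1a2* CRISPants and 79.8 ± 5.58 CPM in controls (SD, n = 5 each). Its log2 fold changes of -0.01 (SE 0.07) and -0.04 (SE 0.08) did not pass in *ap3b2* and *eef1a2* CRISPants. The sum of both *ap3m2* copies did not pass either, with 109.7 ± 10.9, 106 ± 10.02 and 118 ± 6.26 CPM in the same order of groups and log2 fold changes of -0.13 (SE 0.07, FDR = 0.156, edgeR) and -0.17 (SE 0.07, FDR = 0.0596, edgeR).

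The small σ subunit helps to hold the complex together, and *ap3s1* was the AP-3 subunit that was higher in CRISPants. *ap3s1.L*, which has no position in the gene table, had 49.3, 47.3, 48.7 and 43.5 CPM in *ap3b2* CRISPants, 45.8, 41.8, 49.5, 48.1 and 49.7 CPM in *eef1a2* CRISPants and 39.2, 40.4, 41.7, 45.2 and 37.9 CPM in controls. Most CRISPant libraries stood above the controls, but control replicate 4 reached into their range. The log2 fold change was 0.20 (SE 0.07, FDR = 0.0320, edgeR) in *ap3b2* and 0.19 (SE 0.07, FDR = 0.0426, edgeR) in *eef1a2* CRISPants. *ap3s1.S* (chromosome 1S, 159968326 to 159999192) averaged 57.3 ± 2.70 CPM in *ap3b2* CRISPants (SD, n = 4), 56.1 ± 3.83 CPM in *eef1a2* CRISPants and 49.8 ± 3.76 CPM in controls (SD, n = 5 each). It passed in *ap3b2* CRISPants (0.20, SE 0.07, FDR = 0.0345, edgeR) and not in *eef1a2* CRISPants (0.16, SE 0.07, FDR = 0.0788, edgeR). The sum of both copies averaged 105 ± 4.76 CPM in *ap3b2* CRISPants (SD, n = 4), 103 ± 7.02 CPM in *eef1a2* CRISPants and 90.6 ± 6.46 CPM in controls (SD, n = 5 each). It was higher in *ap3b2* CRISPants (0.18, SE 0.06, FDR = 0.0338, edgeR) and did not pass in *eef1a2* CRISPants (0.17, SE 0.06, FDR = 0.0546, edgeR), where 19.4% and 18.9% of all sums were higher. These were the least stable calls among the subunits: with library size alone *ap3s1.L* was at 0.13 (FDR = 0.118, edgeR) and *ap3s1.S* at 0.12 (FDR = 0.143, edgeR) in *ap3b2* CRISPants, and each lost its call there when any of control replicates 1, 2 and 5 or *ap3b2* CRISPant replicates 1, 2 and 3 was left out (FDR 0.0605 to 0.0980, edgeR). In *eef1a2* CRISPants *ap3s1.L* lost its call without any library other than control replicate 4 and *eef1a2* CRISPant replicate 2, with FDR up to 0.0977 in edgeR.

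The second σ gene, *ap3s2.S* (chromosome 3S, 45860700 to 45892689), was among the AP-3 rows with the fewest counts. It averaged 11.0 ± 1.37 CPM in *ap3b2* CRISPants (SD, n = 4), 10.2 ± 1.61 CPM in *eef1a2* CRISPants and 10.2 ± 0.493 CPM in controls (SD, n = 5 each), and did not pass in either comparison (0.10, SE 0.10, and -0.02, SE 0.11, on the log2 scale).

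The balance of homeologs in control brains differed between subunits. The S copy took 37.01 ± 1.46% of *ap3b2* counts, 32.6 ± 1.29% of *ap3m2* counts, 47.7 ± 0.987% of *ap3d1* counts and 54.9 ± 0.665% of *ap3s1* counts (SD, n = 5 controls). Over all 7892 pairs of the table the median share was 45.4%, with quartiles of 34.3% and 56.1%. The L copy thus led in *ap3b2*, *ap3m2* and, more narrowly, *ap3d1*, as it did in the median pair, and the S copy led in *ap3s1*. *ap3m2* lay just outside the middle range of all pairs and the others inside it.

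In CRISPants the balance shifted in *ap3b2* and *ap3m2*, in opposite directions. Of all pairs 11.8% passed as lower and 13.8% as higher in *ap3b2* CRISPants, and 12.3% and 14.3% in *eef1a2* CRISPants. The S share of *ap3b2* was 49.0, 47.8, 45.2 and 41.3% in *ap3b2* CRISPants and 50.8, 43.1, 54.6, 39.0 and 44.6% in *eef1a2* CRISPants, against 36.8, 37.4, 35.0, 36.8 and 39.0% in controls. The *ap3b2* CRISPants lay above every control, and among *eef1a2* CRISPants replicate 4 alone overlapped with them. How many of all pairs had S shares without overlap was not computed. The log2 ratio of L to S was lower by 0.53 in *ap3b2* CRISPants (change of -0.53, SE 0.09, FDR = 0.00366, limma) and by 0.56 in *eef1a2* CRISPants (-0.56, SE 0.14, FDR = 0.0156, limma). It passed as lower in 11.8% of the 7673 pairs tested in *ap3b2* CRISPants and in 12.3% of the 7620 pairs in *eef1a2* CRISPants. The size of the shift exceeded that of 83.4% and 83.9% of all pairs in these comparisons, and between the CRISPant groups the ratio differed by 0.03 (95% interval -0.35 to 0.42). Over replicates 1 to 3 alone the shift in *eef1a2* CRISPants was -0.78 and missed the threshold (FDR = 0.0674, limma).

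For *ap3m2* the S share was 24.96, 27.8, 27.3 and 29.4% in *ap3b2* CRISPants and 25.9, 30.4, 23.6, 25.6 and 27.0% in *eef1a2* CRISPants, against 33.6, 33.4, 33.0, 30.4 and 32.6% in controls. All *ap3b2* CRISPants lay below the controls, and *eef1a2* CRISPant replicate 2 met control replicate 4. Here too the share of all pairs without overlap was not computed. The log2 ratio of L to S was higher by 0.36 (SE 0.07, FDR = 0.00595, limma) in *ap3b2* and by 0.43 (SE 0.09, FDR = 0.00783, limma) in *eef1a2* CRISPants, where 13.8% and 14.3% of all pairs were higher. Over replicates 1 to 3 alone the call in *eef1a2* CRISPants was lost here too (0.47, FDR = 0.0674, limma).

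The balance of *ap3d1* and *ap3s1* stayed near that of controls. Whether neuronal and other subunits differ in this was not tested, and 4 pairs are too few to tell. The S share of *ap3d1* was 48.8 ± 1.12% in *ap3b2* CRISPants (SD, n = 4), 48.5 ± 1.34% in *eef1a2* CRISPants and 47.7 ± 0.987% in controls (SD, n = 5 each), and that of *ap3s1* was 54.8 ± 1.11, 54.4 ± 0.546 and 54.9 ± 0.665%. Their log2 ratios changed by -0.07 and 0.00 in *ap3b2* CRISPants and by -0.05 and 0.03 in *eef1a2* CRISPants, none of which passed. Reads of near-identical homeologs may have been divided unevenly in counting, which would bear on each of these shares.

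**Figure D3:**
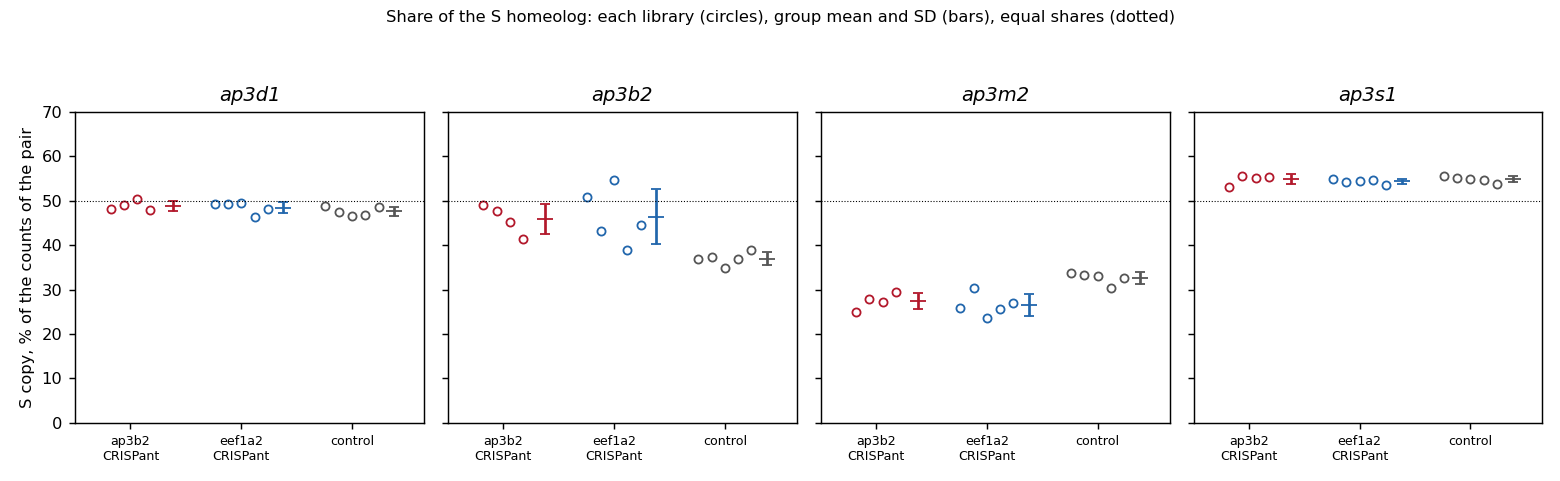
Share of the S homeolog in the counts of a pair (y axis, %) for *ap3d1*, *ap3b2*, *ap3m2* and *ap3s1* in *ap3b2* CRISPant (n = 4), *eef1a2* CRISPant (n = 5) and control libraries (n = 5). Circles are libraries, bars the mean ± SD; the *ap3b2* share is 45.8 ± 3.40, 46.4 ± 6.26 and 37.01 ± 1.46%, and the *ap3m2* share 27.4 ± 1.83, 26.5 ± 2.52 and 32.6 ± 1.29%.

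Genes were then sought whose log2 CPM ran most like that of the *ap3b2* copies over the 14 libraries. These include the groups themselves, and any batches among them, which the labels do not name, enter the correlations too. For *ap3b2.L* the closest were *hspa4.S* (Pearson r = 0.995), *nlgn4x.L* (0.992), *ncstn.L* (0.991), *adam10.S* (0.990) and *ddah1.S* (0.989). Such close company was common: 2040 of the other 21327 genes, 9.57%, had r above 0.9 with *ap3b2.L*, and 1758 with *ap3m2.S*, whose own r with *ap3b2.L* was 0.950. For *ap3b2.S* the closest were *odad3.L* (0.905), *wdfy2.S* (0.869), *plscr2.S* (0.860), *KIAA0319L.L* (0.857) and *fgf2.S* (0.857), and 1 gene was above 0.9. The 2 homeologs ran less alike, at r = 0.573, and *ap3b2.S* ranked 6344 among the other 21327 genes by its closeness to *ap3b2.L*.

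Other adaptor complexes coat other membranes: AP-1 at the trans-Golgi network and endosomes, AP-2 at the plasma membrane, AP-4 at the trans-Golgi network and AP-5 at late endosomes. The shares of all genes that passed, 22.8% lower and 20.0% higher in *ap3b2* CRISPants and 21.4% lower and 18.8% higher in *eef1a2* CRISPants, stand beside the counts of each list that follows. Among AP-1 genes 2 of 11 tested were lower and 1 was higher in *ap3b2* CRISPants, and 4 were lower and 1 was higher in *eef1a2* CRISPants. Among AP-2 genes 1 of 10 was lower and 2 were higher in *ap3b2* CRISPants, and 3 were lower and 2 were higher in *eef1a2* CRISPants. The AP-2 gene that passed a 2-fold change was *ap2a1.L*, a large α subunit, with 28.9 ± 10.4 CPM in *ap3b2* CRISPants (SD, n = 4) and 26.5 ± 12.8 CPM in *eef1a2* CRISPants, against 66.3 ± 9.62 CPM in controls (SD, n = 5 each). Its log2 fold changes were -1.21 (SE 0.20, FDR = 0.00296, edgeR) and -1.33 (SE 0.28, FDR = 0.00838, edgeR), beyond any AP-3 row. No other AP-2 row was lower in *ap3b2* CRISPants, and the sum of L and S counts of *ap2a1* is not given here. For AP-4, 3 of 4 genes were higher in both groups, and for AP-5 1 of 4 was, where 20.0% and 18.8% of all genes were higher. With single libraries left out the AP-4 count ranged from 1 to 3 in each group. Under other settings it ranged from 1 to 3 in *ap3b2* and from 0 to 3 in *eef1a2* CRISPants. The AP-5 count fell to 0 under some alternatives in each group.

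The genes of proteins that recruit AP-3 or work with it were mixed as well. On a list of recruitment and regulation genes (15 tested), which shares *bloc1s6* with BLOC-1 and *pi4k2a* and *vamp7* with the cargo list, 2 were lower and 4 were higher in *ap3b2* CRISPants, and 3 were lower and 2 were higher in *eef1a2* CRISPants, beside the shares of all genes given above. The S copy of *arf1*, the small GTPase that loads AP-3 onto membranes, passed a 2-fold change in *eef1a2* CRISPants. The sum of L and S counts of *arf1* is not given here. *arf1.S* had 17.7 ± 4.22 CPM in *ap3b2* CRISPants (SD, n = 4) and 11.9 ± 6.44 CPM in *eef1a2* CRISPants, against 27.9 ± 5.84 CPM in controls (SD, n = 5 each), with log2 fold changes of -0.66 (SE 0.18, FDR = 0.0143, edgeR) and -1.23 (SE 0.32, FDR = 0.0133, edgeR).

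BLOC-1, a complex that acts with AP-3 on the same endosomal tubules, was higher throughout the genes that passed: 10 of 12 tested in *ap3b2* CRISPants and 9 of 12 in *eef1a2* CRISPants, with 0 lower in either, where 20.0% and 18.8% of all genes were higher. Their median log2 fold changes were 0.34 and 0.31, beside 0.03 for all genes. Short genes as a class were also higher, as given above. The spans of the BLOC-1 genes are not given here, and the part of gene span in their change was not tested. *snapin.L*, whose protein also binds the SNARE protein SNAP25, may serve as an example chosen after its values were seen, with 55.6 ± 7.78 CPM in *ap3b2* CRISPants (SD, n = 4), 55.5 ± 6.60 CPM in *eef1a2* CRISPants and 40.1 ± 1.91 CPM in controls (SD, n = 5 each) and log2 fold changes of 0.47 (SE 0.09, FDR = 0.00355, edgeR) and 0.46 (SE 0.08, FDR = 0.00780, edgeR). With library size alone 6 BLOC-1 genes were higher in *ap3b2* and 7 in *eef1a2* CRISPants. With the trend with gene span removed 5 were higher in each group, and over replicates 1 to 3 alone 11 were higher in *ap3b2* and 3 in *eef1a2* CRISPants. The shares of all genes under these alternative settings were not computed, so these counts cannot be set against a background. Of BLOC-2 and BLOC-3 genes 1 of 5 was lower and 2 were higher in *ap3b2* CRISPants, and 1 was higher in *eef1a2* CRISPants.

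HOPS tethers the AP-3 carriers to lysosomes, and 2 of its 8 genes tested were lower in both groups, *vps39.L* and *vps41.L*, with 0 higher. This share was close to the 22.8% and 21.4% of all genes that were lower. *vps41*, the subunit that binds AP-3 in yeast, had a log2 fold change of -0.29 (SE 0.07, FDR = 0.00760, edgeR) for its L copy in *ap3b2* and -0.36 (SE 0.07, FDR = 0.00793, edgeR) in *eef1a2* CRISPants. With the trend with gene span removed *vps41.L* was at -0.14 in *ap3b2* CRISPants and did not pass (FDR = 0.121, edgeR). For *vps39.L* these values were -0.64 (SE 0.14, FDR = 0.00545, edgeR) and -0.79 (SE 0.14, FDR = 0.00780, edgeR).

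Among 18 genes of cargo that AP-3 is known to sort, 4 were lower and 2 were higher in *ap3b2* CRISPants, and 4 were lower and 1 was higher in *eef1a2* CRISPants, so that the share lower was close to that of all genes (22.8% and 21.4%). Both copies of *slc17a7*, the vesicular glutamate transporter, were lower in both groups. *slc17a7.L* averaged 113 ± 33.6 CPM in *ap3b2* CRISPants (SD, n = 4) and 113 ± 30.6 CPM in *eef1a2* CRISPants, against 196 ± 7.28 CPM in controls (SD, n = 5 each), and its log2 fold change was -0.80 in both (FDR = 0.00349 and 0.00796, edgeR). *slc17a7.S* was at -0.44 (FDR = 0.0103, edgeR) and -0.40 (FDR = 0.0166, edgeR). *lamp2.L*, a lysosomal membrane protein, was at -0.86 (FDR = 0.00337, edgeR) and -0.95 (FDR = 0.00835, edgeR). These cargo and HOPS genes did not pass a 2-fold change and were chosen after their values were seen. Over replicates 1 to 3 alone *ap2a1.L*, *arf1.S*, *vps41.L*, *lamp2.L* and *slc17a7.S* missed the threshold in *eef1a2* CRISPants (FDR 0.0561 to 0.0775, edgeR). In *ap3b2* CRISPants *arf1.S* missed it in 3 of 20 alternatives, among them 1 fit of all 14 libraries (-0.66, FDR = 0.105, edgeR).

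**Figure D4:**
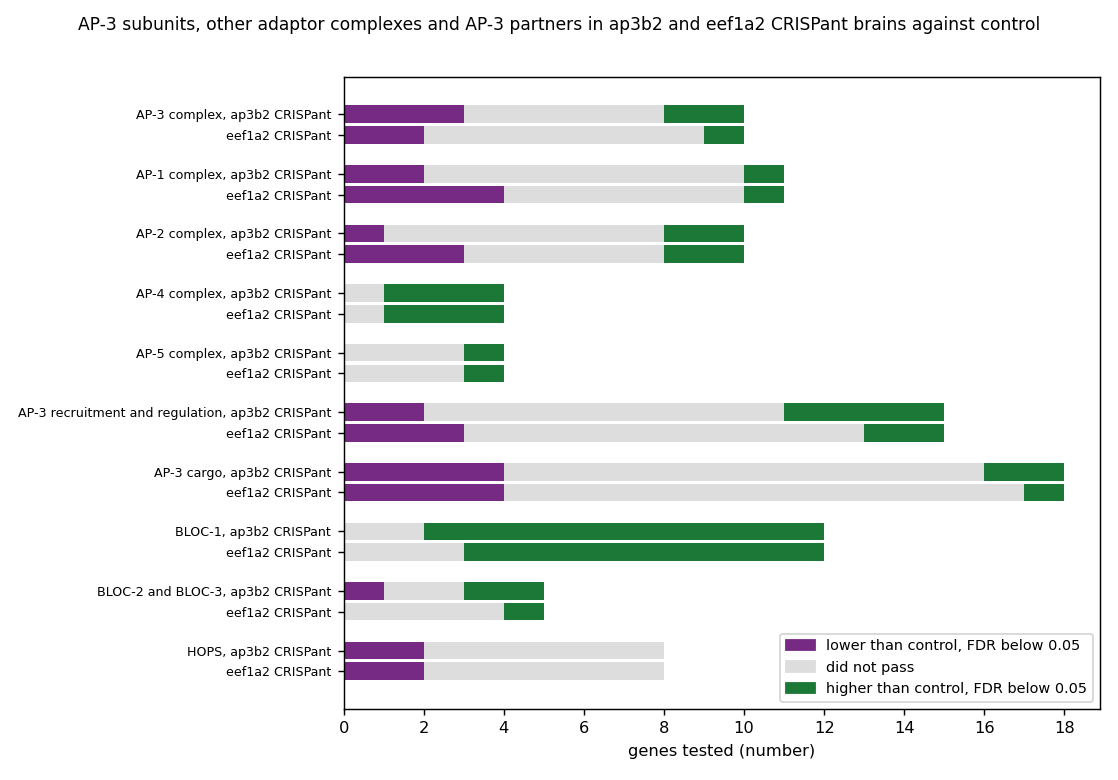
Number of genes tested (x axis) in the AP-3, other adaptor, recruitment, cargo, BLOC and HOPS lists that were lower than control (purple), did not pass (grey) or were higher (green) at an FDR below 0.05 in *ap3b2* CRISPants (upper bar of each list) and *eef1a2* CRISPants (lower bar). For AP-3 3 of 10 rows are lower and 2 higher in *ap3b2* CRISPants and 2 lower and 1 higher in *eef1a2* CRISPants; for BLOC-1 10 and 9 of 12 are higher.

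Markers of other cell types were summed in each library. The ranges of endothelial and oligodendrocyte sums overlapped between the CRISPant groups and controls, but single rows were lower. These were 7 of 15 endothelial rows tested in *ap3b2* CRISPants and 5 of 13 in *eef1a2* CRISPants. Of 10 oligodendrocyte rows 2 were lower in each group, and 0 rows of either list were higher. Among all genes 22.8% and 21.4% were lower. The 16 rows of endothelial markers summed to 60.2 to 97.1 CPM in *ap3b2* CRISPants, 67.1 to 87.9 CPM in *eef1a2* CRISPants and 82.1 to 106 CPM in controls, and the 10 rows of oligodendrocyte markers to 361 to 541, 440.3 to 589 and 426 to 698 CPM. The 15 rows of neural progenitor markers summed to 1553 to 1705 CPM in *ap3b2* CRISPants, 1450.0 to 1782 CPM in *eef1a2* CRISPants and 1309 to 1501 CPM in controls. The *ap3b2* CRISPant sums thus all lay above the controls, and the *eef1a2* CRISPant sums overlapped with them. How often sums of other genes lie apart was not computed. Of the 15 progenitor rows 5 were higher in each CRISPant group, beside 20.0% and 18.8% of all genes. In *ap3b2* CRISPants 2 were lower and in *eef1a2* CRISPants 1 was. The part of these cell types in the AP-3 values was not tested.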

How the data were processed

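Per the study's methods and the labels, the authors made stranded mRNA libraries, aligned paired reads to *X. laevis* v10.1 with STAR and counted pairs per gene with featureCounts; versions are not given in the sources used here. They deposited counts for 26807 genes, without normalization, and log2 CPM values for 21328 genes. The latter equal edgeR's log2 CPM (TMM, prior count of 2) to within 4.99e-09, and the CPM given here use the same scaling. Groups and replicate numbers came from the labels. In R 4.3.3, edgeR 4.0.16 (glmQLFit and glmQLFTest, group alone) was run on each pair of groups (a gene was dropped when at least 4 of the libraries compared had no more than 1 CPM), and again on L and S counts summed. P-values were adjusted over all genes by the Benjamini-Hochberg method. The L to S log2 ratio (prior count of 2) was tested over all pairs with limma 3.58.1. SEs were derived from the test statistics. The edgeR fit with group alone, the removal of the trend with gene span and the limma fit were tested on simulated data, and the other fits were not. Alternatives were DESeq2 1.42.0, other scalings, filters, blocks and subsets, and every library left out. The trend with gene span was removed by a lowess curve per library (fraction 0.3), with the homeolog's span where a gene had none. Positions of 8 AP-3 rows came from a RefSeq gene table of v10.1. No replicates were duplicates (lowest chi-square per degree of freedom 5.32).

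The members and all lists were chosen with earlier results of these data known. Genes named besides AP-3 rows are genes of the adaptor, recruitment, cargo, BLOC and HOPS lists past an FDR of 0.05 and a 2-fold change, and the 5 most correlated with each *ap3b2* copy. Others are marked in the text. Marker genes past this rule were not named, and neuronal markers were named only as examples. A CPM of 1 before TMM scaling, as used in the filter, stood for 36.6 to 46.7 counts. Other marker lists (microglia and leukocytes, epidermis, skeletal muscle, erythroid cells, cartilage) were summed; their levels are in the closing section. The series text gives 5 replicates per condition, and 4 were available for *ap3b2*.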

Additional observations from a re-analysis of the deposited data

How the results depend on the processing

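*ap3b2.L* and *ap3m2.S* were lower at an FDR below 0.05 in both CRISPant groups under every alternative fit run. No row passed a 2-fold threshold as well, so the counts of 3 lower and 2 higher (*ap3b2*) and 2 lower and 1 higher (*eef1a2* CRISPants) became 0. The count of higher rows was 0 with library size alone in either group, 0 with the replicate block in *ap3b2* CRISPants and 0 over replicates 1 to 3 in *eef1a2* CRISPants; it was 5 in either group with the trend with gene span removed, 3 in *eef1a2* CRISPants with the block as well and 2 there in 1 fit of all 14 libraries. With single libraries left out it ranged from 0 to 2 in both groups. The shares of all genes under these settings were not computed.

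For *ap3b2.S* in *ap3b2* CRISPants the log2 fold change was -0.15 to -0.024 with single libraries left out, -0.16 over replicates 1 to 3, 0.19 with the trend with span removed and 0.21 with the replicate block as well; in *eef1a2* CRISPants the last 2 gave 0.16 each. The *ap3b2* L to S shift in *eef1a2* CRISPants was -0.78 over replicates 1 to 3. Other reversals concerned values near 0 that had not passed. In *ap3b2* CRISPants *ap3d1.L* was -0.038 and the *ap3d1* sum -0.0068 with library size alone, *ap3d1.L* -0.0094 over replicates 1 to 3 and *ap3m2.L* 0.0071 with a batch term for replicates 4 and 5. That split was chosen here, since the labels name no batches. In *eef1a2* CRISPants *ap3d1.L* was -0.0094 with library size alone, and *ap3s2.S* 0.031 over replicates 1 to 3, 0.025 with the span trend removed and 0.012 with the block as well. With single libraries left out, *ap3m2.L* ranged from -0.057 to 0.037, the *ap3s1* L to S shift from -0.028 to 0.019 and the β share difference from -0.75 to 0.67 percentage points in *ap3b2* CRISPants, and *ap3s2.S* from -0.078 to 0.058 in *eef1a2* CRISPants.

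Between the CRISPant groups *ap3b2.L* was -0.051 over replicates 1 to 3, *ap3b2.S* 0.0038 and *ap3d1.S* 0.015 with the span trend removed, and *ap3d1.S* 0.0060 with the block as well; single libraries left out gave -0.19 to 0.12 (*ap3b2.L*), -0.11 to 0.023 (*ap3b2.S*), -0.036 to 0.018 (*ap3d1.S*), -0.029 to 0.089 (*ap3m2.L*), -0.016 to 0.15 (*ap3m2.S*), -0.038 to 0.039 (*ap3s1.L*), -0.015 to 0.053 (*ap3s1.S*) and -0.086 to 0.14 for the *ap3b2* L to S ratio. The cause of these changes was not tested.

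Replicate numbers were not taken as pairs, since not every same-numbered pair of deviations correlated: r ranged from -0.06 to 0.31 (mean 0.12, against -0.03 for other pairs) between *ap3b2* CRISPants and controls, from -0.22 to 0.36 (0.18 against -0.05) between *eef1a2* CRISPants and controls and from -0.06 to 0.63 (0.25 against -0.06) between the CRISPant groups. Not every library correlated best with its own number. The replicate block ended 5 calls (*ap3b1.L*, *ap3s1.L*, *ap3s1.S*, the *ap3s1* sum and *arf1.S*, all in *ap3b2* CRISPants), gained 1 (the *ap3m2* sum in *eef1a2* CRISPants) and turned no direction.

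Levels per transcript length, and the μ share, which needs *ap3m1*, were not computed, so the alternatives without a length correction were not run apart. The AP-3 rows had 313 counts or more per library.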

Other observations

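The remaining marker lists gave these sums. Microglial and leukocyte markers summed to 31.0 to 33.4 CPM in *ap3b2* CRISPants, 31.7 to 36.7 CPM in *eef1a2* CRISPants and 30.8 to 37.7 CPM in controls. Epidermal markers summed to 229 to 287, 213 to 263 and 206 to 276 CPM, and skeletal muscle markers to 14.7 to 32.4, 13.3 to 27.4 and 10.04 to 20.2 CPM in the same order of groups. Erythroid markers summed to 983 to 1375 CPM in *ap3b2* CRISPants, 707 to 1529 CPM in *eef1a2* CRISPants and 780 to 1015 CPM in controls, and cartilage markers to 212 to 247, 217 to 286 and 251 to 276 CPM. All cartilage sums of *ap3b2* CRISPants thus lay below the controls, but how often sums of other genes do was not computed. Of 7 cartilage rows tested 1 was lower and 0 were higher in *ap3b2* CRISPants, and 1 was lower and 1 higher in *eef1a2* CRISPants. Of 8 epidermal rows tested 2 were higher, both by more than 2-fold, in each CRISPant group, and 1 was lower in *eef1a2* CRISPants. By that rule 0.0769% and 0.0870% of all genes were higher. Of 6 erythroid rows 3 were higher in *ap3b2* and 2 in *eef1a2* CRISPants, with 0 lower. Of 20 neuronal rows 4 were lower and 5 higher in *ap3b2* CRISPants, and 3 lower and 4 higher in *eef1a2* CRISPants. Among all genes 22.8% and 21.4% were lower and 20.0% and 18.8% higher. The share of *ap3b2* in β counts was highest in *ap3b2* CRISPant replicate 4 (96.1%) and lowest in *eef1a2* CRISPant replicate 3 (87.9%). A check for single libraries that stand apart from their group, over 45 sets of values (the CPM of each AP-3 row, the S shares and the β share in each group), found 0. It took 1 set at a time (Dixon's Q, 95% confidence) and can miss such a library among 4 or 5. Over all genes, *ap3b2* CRISPant replicate 4 had a chi-square per degree of freedom of 56.1, 36.2 and 30.5 against replicates 1, 2 and 3. Among those replicates it was 7.90 to 15.5. For control replicate 4 it was 19.7 to 38.9, and 5.32 to 17.1 among the other controls. Pairs of *eef1a2* CRISPants had 16.3 to 67.2.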
